A study of Mus musculus with 8 samples.

Results

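A set of 40 genes that mark macrophages, monocytes, dendritic cells and neutrophils was followed as a gauge of myeloid RNA in libraries made from sorted CD44+ Treg cells (eTreg cells). The members were chosen by name from the 49212 genes of the count tables: 13 macrophage genes, 6 genes of the tumor macrophage state, 4 monocyte, 5 neutrophil and 5 dendritic cell genes, and 7 genes of the machinery that myeloid cells share. All 40 had counts, and 32 had at least 1 count in each of the 8 libraries. The WT mice were Foxp3-YFP-Cre mice, in which the Foxp3 locus drives YFP and Cre, and the KO mice carried Prdm1 fl/fl beside Foxp3-YFP-Cre and so lose Prdm1, the gene of the repressor Blimp1, in Foxp3-expressing cells only. All groups were C57BL/6 mice that carried B16-OVA melanoma and had been immunized with NP-OVA, and all cells were sorted as CD45+CD44+YFP+CD4+CD3+. Each of the 4 groups (WT TIL, KO TIL, WT spleen and KO spleen) had 2 libraries, spleens were enriched for CD4+ cells on beads before the sort, and the labels give neither the age of the mice nor whether the 2 libraries came from separate mice, so p-values measure only the spread between libraries. No member is a gene that the sort selected for.

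Macrophages engulf dying cells and pathogens and live in every tissue, and in spleen the red pulp macrophages clear aged red cells and recycle their iron. Monocytes enter inflamed tissue from blood and become macrophages there, and in tumors they often take on a state with genes of matrix breakdown, arginine use and lipid handling. Neutrophils carry antimicrobial granules, and dendritic cells present antigen to T cells. Many myeloid receptors have no signaling tail of their own and pair with the adaptors DAP12 (Tyrobp) or the Fc receptor gamma chain (Fcer1g), and the transcription factor PU.1 (Spi1) is required for the myeloid lineages.

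The sequences printed here are the RefSeq bases (GRCm38.p6) just before the start of 4 members with large tissue differences and of C1qb. For the 4 members, only starts with the motif given below were chosen for print. C1qb is a macrophage gene whose libraries overlapped between the tissues. Each is printed 5′ to 3′ in the direction of the gene, with capitals for GAGGAAG, a core that PU.1 is known to bind, or for its reverse complement.
Mmp12: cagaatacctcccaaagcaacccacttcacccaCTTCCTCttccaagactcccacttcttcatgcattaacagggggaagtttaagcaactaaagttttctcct
Spp1: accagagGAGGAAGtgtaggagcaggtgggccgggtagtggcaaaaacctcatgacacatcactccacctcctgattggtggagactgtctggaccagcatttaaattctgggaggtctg
Trem2: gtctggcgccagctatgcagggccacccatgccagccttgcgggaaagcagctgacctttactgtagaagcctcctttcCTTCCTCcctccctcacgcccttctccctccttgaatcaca
Itgam: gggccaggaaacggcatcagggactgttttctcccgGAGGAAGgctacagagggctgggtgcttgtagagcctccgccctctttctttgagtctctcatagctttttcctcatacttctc
C1qb: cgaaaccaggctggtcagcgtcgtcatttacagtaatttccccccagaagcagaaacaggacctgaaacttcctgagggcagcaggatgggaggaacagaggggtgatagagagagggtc
The stretches lie at chr9:7344277-7344380 (plus strand) for Mmp12, chr5:104434991-104435110 (plus strand) for Spp1, chr17:48346281-48346400 (plus strand) for Trem2, chr7:128062520-128062639 (plus strand) for Itgam and chr4:136886201-136886320 (minus strand) for C1qb. The Mmp12 stretch holds 104 bases, because it was ended at the first exon of the count tables, and the others hold 120. GAGGAAG was searched on both strands in the 250 bases before each annotated start. It was found for 12 of the 30 members with a RefSeq promoter, and for 12.0% of the 27025 genes with one, and 10 members had no promoter in the table used. Of the 15 members with a promoter that were called higher in TIL over the 8 libraries, 7 held the motif, and of the other 15, 5 did. Gpnmb, Lyz2, Vcan and Xcr1 were called but had no match, while C1qc, Mrc1 and Marco had a match but were not called. Mmp12 and Spp1 each had another annotated start without the motif. A match is a description of the letters and shows no binding.

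Facts of the libraries come before the values. Counts on genes ran from 27834676 to 43903859 per library, and levels are given as CPM (counts scaled to one library size by edgeR's TMM method). A floor of 3 counts corresponds to 0.0644 to 0.112 CPM, and such floors and the intervals given cover counting error only. Prdm1 had 108 and 192 CPM in WT and 90.7 and 75.1 CPM in KO TIL libraries, but counts over the whole gene do not check a deletion of part of it. Both KO TIL libraries stood apart from the sorted phenotype. KO TIL replicate 1 had the lowest Cd3e level of all libraries (315 CPM, against 927 to 1444 in the others), and KO TIL replicate 2 had 2.99 CPM of Foxp3, 66.2 CPM of Cd4 and 1214 CPM of Cd8a. Counts of genes called between the tissues over all 8 libraries are therefore given beside those of the 4 WT libraries alone.

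The 40 members took up a small part of every library, and their share varied within groups, by 3.83-fold between the 2 WT and 4.12-fold between the 2 KO TIL libraries. In the TIL libraries they held 0.692% and 0.181% of all gene counts in WT and 2.63% and 0.638% in KO. The splenic libraries gave 0.105% and 0.377% in WT and 0.0743% and 0.184% in KO. The lowest TIL library, WT TIL replicate 2, thus lay below the highest splenic library, WT splenic replicate 2. The mean was 1.04% ± 1.09 (SD, n = 4) in TIL and 0.185% ± 0.136 (SD, n = 4) in spleen, a ratio of 5.6, which fell to 2.72 without KO TIL replicate 1. In bulk samples, more myeloid cells and more RNA per myeloid cell cannot be told apart. Leaving out 11 members that other cells also make gave a ratio of 5.57 over the other 29. These 29 held 1.92% in KO TIL replicate 1, against 0.286% in KO replicate 2 and 0.443% and 0.106% in WT TIL. They held 0.0525% to 0.243% in spleen.

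Among the TIL libraries, the share of counts of every kind of member was highest in KO replicate 1 and lowest in WT replicate 2. WT replicate 1 exceeded KO replicate 2 in macrophage genes (0.342% against 0.184%), tumor state genes and shared machinery. KO replicate 2 exceeded WT replicate 1 in monocyte genes (0.221% against 0.0451%), neutrophil genes and dendritic cell genes. KO TIL replicate 1 was the highest TIL library for 35 of the 40 members, and WT TIL replicate 2 was the lowest for 34. Among the splenic libraries, WT replicate 2 was the highest for 22 members and KO replicate 1 the lowest for 24. Summed, genes of the sorted cells were lowest in KO TIL replicate 1 and highest in WT TIL replicate 2. Foxp3, Cd4 and Ikzf2 were instead lowest in KO TIL replicate 2 (2.99, 66.2 and 44.3 CPM, against 10.2, 148 and 64.0 CPM in KO TIL replicate 1). Foxp3, Cd3e, Cd3d and Ikzf2 were highest in a splenic library. In TIL the summed level of 8 CD4 T cell and Treg genes was 1373 and 3184 CPM in KO replicates 1 and 2. It was 8581 and 12011 CPM in WT replicates 1 and 2, against 4431 to 5714 CPM in spleen. Ctla4 alone gave 461 and 917 CPM of the KO and 4136 and 5719 CPM of the WT TIL sums, against 310 to 389 CPM in spleen. The part of the sorted cells in the members' differences was not tested.

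**Figure D1:**
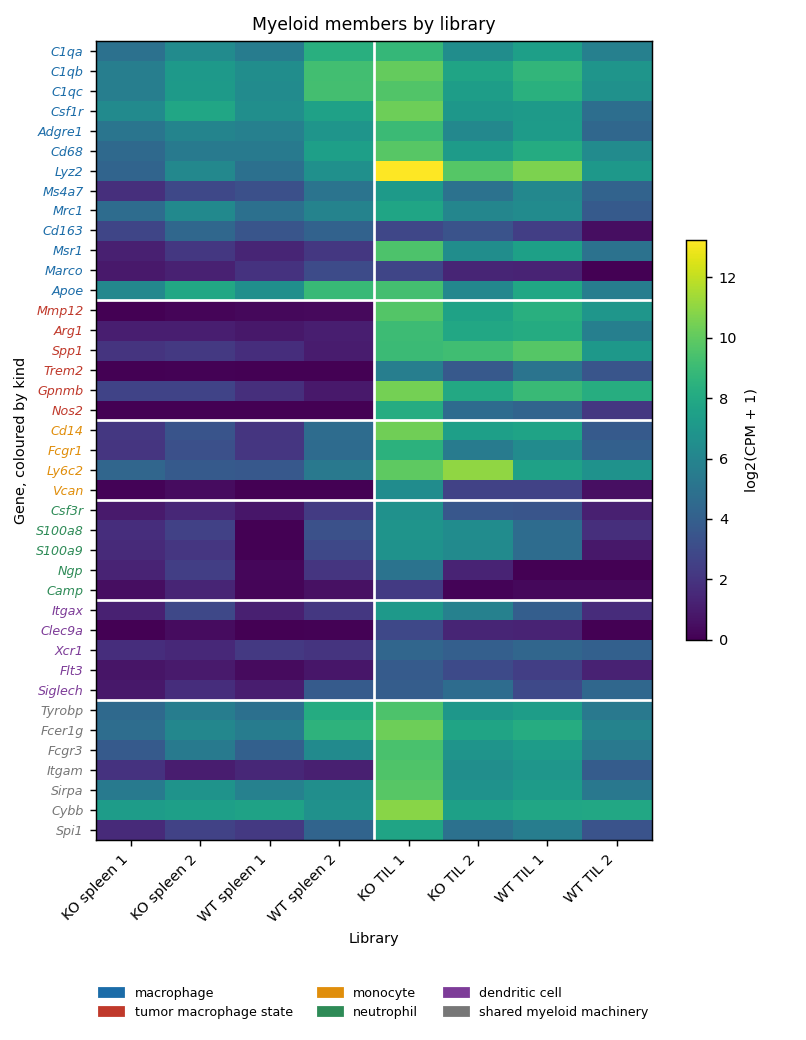
Level of the 40 members in each library as log2(CPM + 1), with rows grouped by kind and splenic libraries left of the white line. KO TIL replicate 1 has the highest level of 35 members among the TIL libraries, and the 6 genes of the tumor macrophage state lie at 5.35 CPM or lower in every splenic library.

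Of the members, 20 had higher levels in tumor than in spleen, and the others did not pass the test. In the model over all 8 libraries (edgeR's quasi-likelihood test, called at a Benjamini-Hochberg adjusted p under 0.05 and an absolute log2 fold change over 1), all 40 members were tested and none was lower in TIL, with 27 at an unadjusted p under 0.05, and DESeq2's Wald test called 25 higher (background 12.6%) and 1 lower, Cd163 (background 8.03%). The edgeR background was 11.3% of the 17870 genes tested called higher in TIL and 7.84% called lower. The count was 15 of 40 without KO TIL replicate 1 (background 8.21%), 12 without WT splenic replicate 1 (background 10.3%) and 13 without KO splenic replicate 1 (background 5.74%). In 13 members every TIL library lay above every splenic library, against 14.1% of all genes tested, and in the 4 WT libraries this held for 14 of 37, against 25.1%. The tumor state and monocyte genes were all called, beside 4 of 13 macrophage genes, 1 of 5 neutrophil genes, 3 of 5 dendritic cell genes and 2 of 7 genes of shared machinery. The median log2 fold change of the 40 members was 2.86, beside -0.07 over all genes tested, but 5 members (Mmp12, Trem2, Nos2, Vcan and Clec9a) had fewer than 2 splenic libraries with the roughly 10 counts that the filter asks for. These passed through TIL alone and so had to differ, and of the other 35 members 16 were called higher.

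Within WT, which holds neither KO TIL library, 11 of the 37 members tested were higher in TIL (background 4.1%). Leaving out the 6 that passed the filter through TIL alone there, 7 of 31 were higher (Msr1, Arg1, Spp1, Gpnmb, Ly6c2, Xcr1 and Itgam). The WT count was 4 without WT splenic replicate 2 (background 0.988%), and without WT TIL replicate 2 it was 18, of which 17 were higher (background 4.83%). Within KO, 7 of 40 were higher (background 0.803%). Leaving out the 5 that passed the filter through TIL alone there (Mmp12, Trem2, Nos2, Vcan and Clec9a), 6 of 35 were higher. These were Arg1, Spp1, Ly6c2, S100a8, S100a9 and Xcr1. The larger KO counts that follow also include Mmp12, Trem2, Nos2 and Vcan. With either KO splenic library left out, none was called by edgeR in KO (27 and 33 members at an unadjusted p under 0.05, background 0% in both). The count was 26 without KO TIL replicate 1 (background 10.8%) and 37 without KO TIL replicate 2 (background 17.4%). DESeq2's Wald test called 33 of 40 higher in KO (background 13.1%), and in WT 12 of 40 higher (background 6.5%) and 2 lower, Cd163 and Ngp (background 3.42%). Arg1, Spp1, Ly6c2 and Xcr1 were called in both genotypes by edgeR, in tests that share no library.

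**Figure D2:**
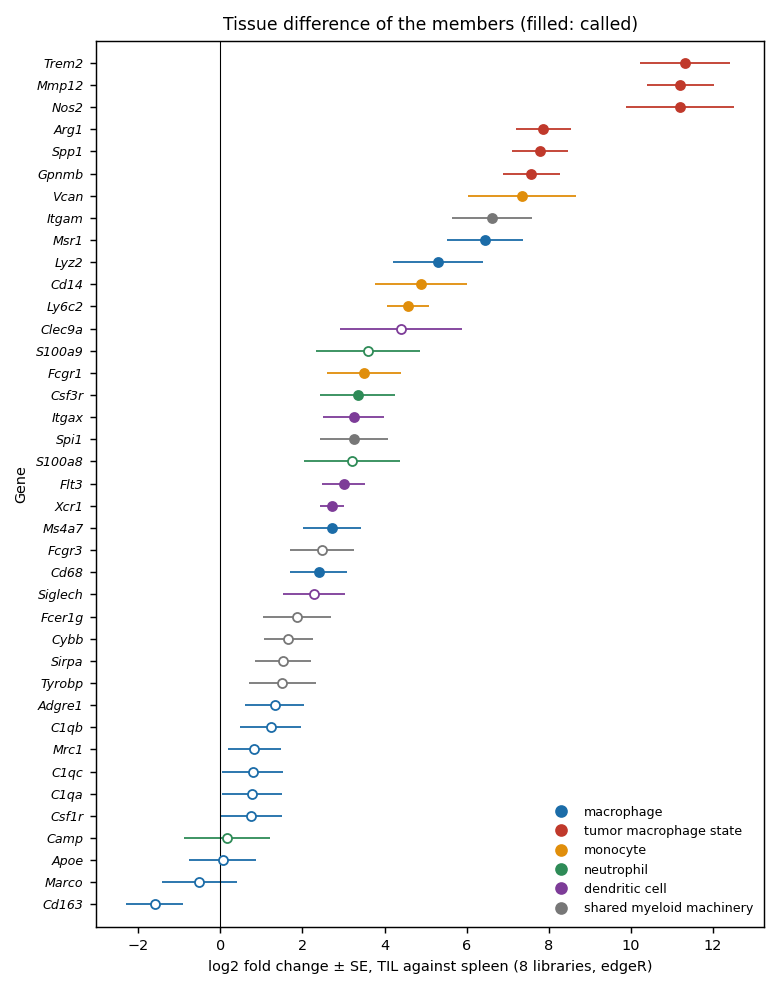
Log2 fold change between TIL and spleen of 39 members, with SE, from the edgeR model over 8 libraries (filled circles, called). Ngp is left out because its fitted value rests on 2 WT TIL libraries at 0 counts; Trem2 and Nos2 rest on 2 splenic counts each, so their fitted values depend on the prior count, and Cd163 is the lowest of those plotted.

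Genes of the tumor macrophage state were nearly absent from spleen and present in every TIL library. Mmp12, the macrophage metalloelastase that cuts elastin, had 322 and 122 CPM in the WT and 808 and 196 CPM in the KO TIL libraries, against 0.209 and 0.2496 CPM in the WT and 0.0215 and 0.152 CPM in the KO splenic libraries. All 4 TIL libraries lay far above all splenic ones, which held 21 counts in all, and the ratio of the mean levels was 2289 over the 8 libraries and 968 in WT, given as a description because the gene passed the filter through TIL alone. Exons of Mmp12 overlap those of the antisense gene Mmp1b, which had no counts. Arg1, which turns arginine into ornithine and urea, had 276 and 51.01 CPM in the WT and 525 and 239 CPM in the KO TIL libraries, against 0.808 and 1.18 CPM in the WT and 1.16 and 1.14 CPM in the KO splenic libraries. Its splenic libraries were nearly level, and TIL was higher by 7.87 ± 0.66 on the log2 scale (adjusted p = 0.0007).

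Nos2, the inducible enzyme that makes nitric oxide from the same arginine, had 18.4 and 3.47 CPM in the WT and 288 and 24 CPM in the KO TIL libraries, against 0.0299 and 0 CPM in the WT and 0 and 0.0253 CPM in the KO splenic libraries. The spleens held 2 counts of it in all, so the ratio of the TIL mean to spleen was 6156, with an exact Poisson 95% interval of 1704 to 50833, and KO TIL replicate 1 supplied most of the TIL mean. Trem2, a lipid-sensing receptor that signals through DAP12, had 33.6 and 10.2 CPM in the WT and 49.5 and 11.8 CPM in the KO TIL libraries, against 0 and 0 CPM in the WT and 0 and 0.0507 CPM in the KO splenic libraries. Its ratio was 1937 (interval 536 to 15993), again on 2 splenic counts, but its TIL libraries lay within 4.87 times of each other.

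Spp1, which encodes the secreted protein osteopontin, had 846 and 131 CPM in the WT and 511 and 570.5 CPM in the KO TIL libraries, against 2.304 and 1.03 CPM in the WT and 2.899 and 3.55 CPM in the KO splenic libraries. WT TIL replicate 1 was its highest library, which set it apart from most members, and the tissue difference was 7.79 ± 0.69 (SE), adjusted p = 0.000704. Some Spp1 exons overlap those of Gm42793 on the same strand. Gpnmb, a lysosomal glycoprotein of macrophages and of pigment cells, had 491 and 304 CPM in the WT and 1389 and 250.4 CPM in the KO TIL libraries, against 2.45 and 0.891 CPM in the WT and 5.303 and 5.35 CPM in the KO splenic libraries, a log2 fold change of 7.57 ± 0.69 (SE), adjusted p = 0.000741. Apoe, Gpnmb and Spp1 can also be made by melanoma cells, and 6 melanoma genes, all called higher in TIL, summed to 2077 and 1139.6 CPM in WT and 3198 and 829.7 CPM in KO TIL libraries, against 3.69 to 6.74 CPM in spleen. The part of tumor cells in these members was not tested. Mmp12, Arg1, Nos2 and Trem2 also lay above all splenic libraries in every TIL library. Of these, Mmp12, Nos2 and Trem2 passed the filter through TIL alone.

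Most macrophage genes were present in both tissues. The C1q chains, which start the classical complement pathway and are made mainly by macrophages, did not differ beyond their spread. C1qb had 422 and 117 CPM in the WT and 1081 and 208 CPM in the KO TIL libraries, against 89.4 and 597 CPM in the WT and 50.03 and 135 CPM in the KO splenic libraries. WT splenic replicate 2 exceeded 3 of the 4 TIL libraries, and the tissue difference was 1.23 ± 0.74 (SE), adjusted p = 0.269. C1qa and C1qc followed C1qb, with log2 fold changes of 0.77 ± 0.73 and 0.78 ± 0.74 (adjusted p = 0.484 and 0.479). Within WT the fitted values of all 3 were below 0 (-0.73 for C1qa, -0.36 for C1qb and -0.70 for C1qc), and none was called.

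Other genes of macrophage identity overlapped as well. Csf1r, the receptor for the growth factor that keeps macrophages alive, ranged over 26.04 to 1278 CPM in TIL against 80.5 to 226 CPM in splenic libraries, with exons that overlap the antisense gene Hmgxb3. Adgre1, which encodes the surface marker F4/80, had 20.2 to 509 CPM in TIL against 34.4 to 116 CPM in splenic libraries. Mrc1, the mannose receptor, had 12.3 to 221 CPM in TIL against 24.4 to 75.4 CPM in splenic libraries, and Apoe, the lipid carrier, 47.4 to 626 CPM in TIL against 72.3 to 486 CPM in splenic libraries. None of the 4 was called (adjusted p from 0.228 for Adgre1 to 0.971 for Apoe), and KO TIL replicate 1 was the only TIL library of Csf1r and Apoe above the splenic range. Cd163, the hemoglobin scavenger receptor, had 0.405 to 9.35 CPM in TIL against 5.69 to 20.6 CPM in splenic libraries, and Marco, a scavenger receptor of the splenic marginal zone, 0 to 5.901 CPM in TIL against 0.902 to 7.24 CPM in splenic libraries. Cd163 had the lowest fitted value of the macrophage genes, -1.6 ± 0.69 (SE), adjusted p = 0.134, and Marco that next to it, -0.51 ± 0.92 (adjusted p = 0.728).

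Lysozyme 2 and the scavenger receptor Msr1 were the macrophage genes whose tissues did not overlap. Lyz2, the member with the highest level per kilobase of exon (a mean of 1214 CPM per kb over 8 libraries), had 1566 and 129.7 CPM in the WT and 9546 and 840.0 CPM in the KO TIL libraries, against 28.5 and 98.9 CPM in the WT and 18.5 and 71.3 CPM in the KO splenic libraries. Its 4 TIL libraries spread over a range of 73.6-fold, and the difference was 5.29 ± 1.1 (SE), adjusted p = 0.0134, not called within WT (adjusted p = 0.0624), a call lost without either WT splenic library. Msr1 had 181 and 30.9 CPM in the WT and 727 and 87.5 CPM in the KO TIL libraries, against 1.56 and 3.35 CPM in the WT and 1.22 and 3.37 CPM in the KO splenic libraries. Here the splenic libraries spread by 2.75-fold only, and the difference was called over all libraries (6.45 ± 0.92 (SE), adjusted p = 0.00339) and within WT (5.43 ± 0.86, adjusted p = 0.00632). Cd68, a lysosomal protein of phagocytes, and Ms4a7, a membrane protein of macrophages, were also called (2.39 ± 0.69 and 2.71 ± 0.71, adjusted p = 0.0422 and 0.0299), but WT splenic replicate 2 exceeded 2 TIL libraries in Cd68 and 2 in Ms4a7, neither call held without KO TIL replicate 1, and neither was called within WT (adjusted p = 0.614 and 0.458).

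Of the 4 monocyte genes, Ly6c2 was higher in TIL over all libraries and within WT, Cd14 and Fcgr1 over all libraries only, and Vcan was nearly absent from spleen. Cd14, the coreceptor for lipopolysaccharide, had 205 and 12.4 CPM in the WT and 1299 and 177 CPM in the KO TIL libraries, against 3.05 and 24.6 CPM in the WT and 3.41 and 9.86 CPM in the KO splenic libraries. WT TIL replicate 2 lay below WT splenic replicate 2, and the difference was 4.89 ± 1.12 (SE), adjusted p = 0.019. That call was lost in 4 of the 8 tests that left out 1 library, and the WT comparison did not make it (adjusted p = 0.183). Vcan, a matrix proteoglycan that classical monocytes make, had 5.1 and 0.439 CPM in the WT and 84.8 and 5.12 CPM in the KO TIL libraries, against 0 and 0.0357 CPM in the WT and 0.107 and 0.355 CPM in the KO splenic libraries, without overlap, and with 20 splenic counts in all it is given without a test. Fcgr1, the high-affinity IgG receptor, had 15.6 to 355 CPM in TIL against 3.18 to 23.6 CPM in splenic libraries (3.49 ± 0.9 (SE), adjusted p = 0.0285), again with overlap. Its call was lost in 6 of the 8 tests that left out 1 library, KO TIL replicate 1 among them, and was not made within WT (adjusted p = 0.288). The highest splenic library for Cd14 and Fcgr1 was WT replicate 2.

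Ly6c2, which encodes the surface protein Ly6C, had 189.6 and 106 CPM in the WT and 996 and 2071 CPM in the KO TIL libraries, against 11.6 and 38.97 CPM in the WT and 19.6 and 12.3 CPM in the KO splenic libraries. Its highest library was KO TIL replicate 2 and not KO TIL replicate 1, and the tissue difference was 4.57 ± 0.51 (SE), adjusted p = 0.00134 (within WT, adjusted p = 0.0403). Ly6c2 is also made by activated CD8 T cells, and Cd8a had 71.8 and 9.68 CPM in WT and 217 and 1214 CPM in KO TIL libraries, with the same highest library. The part of those cells was not tested, and reads of Ly6c2 and its near-identical neighbor Ly6c1 (6.23 to 59.0 CPM) may be divided between the 2 genes.

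Neutrophil genes were low, and the 5 members did not move together. S100a8 and S100a9, which form the calcium-binding protein calprotectin, stood out in KO. S100a8 had 24.7 and 2.496 CPM in the WT and 114 and 85.8 CPM in the KO TIL libraries, against 0 and 8.81 CPM in the WT and 2.28 and 4.91 CPM in the KO splenic libraries. S100a9 had 24.6 and 0.776 CPM in the WT and 104 and 78.9 CPM in the KO TIL libraries, against 0 and 6.204 CPM in the WT and 1.93 and 3.24 CPM in the KO splenic libraries. For each, both KO TIL libraries lay above every other library, and TIL exceeded spleen within KO (4.82 ± 0.51, adjusted p = 0.0404, and 5.16 ± 0.41, adjusted p = 0.0366), while WT TIL replicate 2 lay within the splenic range and neither was called over the 8 libraries (adjusted p = 0.0858 and 0.0773).

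Csf3r, the receptor for the growth factor of neutrophils, had 1.25 to 103 CPM in TIL against 0.748 to 3.99 CPM in splenic libraries and was called (3.34 ± 0.92 (SE), adjusted p = 0.0355), a call that did not hold without KO TIL replicate 1 or within WT (adjusted p = 0.525). Ngp and Camp, whose products fill the granules of maturing neutrophils, were low in both tissues. Ngp reached 32.2 CPM in KO TIL replicate 1 but had 0 counts in both WT TIL libraries, against 0.180 to 4.43 CPM in spleen, and Camp had 0.0748 to 3.78 CPM in TIL against 0.1197 to 1.596 CPM in splenic libraries. Neither was called (adjusted p = 0.266 and 0.927).

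Dendritic cell genes were few and mostly higher in TIL. Itgax, which encodes CD11c, had 14.3 and 2.16 CPM in the WT and 137 and 55.04 CPM in the KO TIL libraries, against 1.26 and 3.42 CPM in the WT and 1.31 and 6.23 CPM in the KO splenic libraries. WT TIL replicate 2 lay within the splenic range, and the difference was 3.25 ± 0.74 (SE), adjusted p = 0.019, a call lost in 4 of the 8 tests that left out 1 library and not made within WT (adjusted p = 0.295). Xcr1, the chemokine receptor of cross-presenting dendritic cells, had 19.6 and 15.7 CPM in the WT and 19.4 and 15.1 CPM in the KO TIL libraries, against 3.65 and 2.96 CPM in the WT and 2.32 and 1.9 CPM in the KO splenic libraries. It was the most even member in TIL, with a range of 1.30-fold over libraries whose C1qb levels differed by 9.22-fold, and its difference of 2.72 ± 0.29 (SE), adjusted p = 0.00126 held within WT (adjusted p = 0.0314) and within KO (adjusted p = 0.0485). Clec9a, a receptor for dead cells on the same dendritic cells, was at 0 to 6.31 CPM in TIL against 0 to 0.355 CPM in splenic libraries and was not called (adjusted p = 0.0685), and its exons overlap those of Clec1b on the same strand.

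Flt3, the receptor that drives the growth of dendritic cells, had 4.38 and 1.38 CPM in the WT and 12.8 and 6.77 CPM in the KO TIL libraries, against 0.329 and 0.713 CPM in the WT and 0.709 and 0.963 CPM in the KO splenic libraries. The tissues did not overlap, and the difference was 3 ± 0.53 (SE), adjusted p = 0.00709, but not within WT (adjusted p = 0.141). Siglech, a lectin of plasmacytoid dendritic cells, had 6.68 and 20.6 CPM in the WT and 14.1 and 24.6 CPM in the KO TIL libraries, against 1.08 and 12.98 CPM in the WT and 0.794 and 2.36 CPM in the KO splenic libraries. Its highest TIL libraries were KO replicate 2 and WT replicate 2, which for most members ranked low, and the difference did not pass the threshold (2.29 ± 0.76 (SE), adjusted p = 0.0641).

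Genes of shared myeloid machinery were present in both tissues, except Itgam. Fcer1g had 293 and 58.7 CPM in the WT and 1254 and 208 CPM in the KO TIL libraries, against 45.7 and 374 CPM in the WT and 24.99 and 68.3 CPM in the KO splenic libraries. Tyrobp had 165 and 40.1 CPM in the WT and 733 and 126 CPM in the KO TIL libraries, against 28.2 and 281 CPM in the WT and 21.8 and 48.2 CPM in the KO splenic libraries. In both, WT splenic replicate 2 exceeded 3 of the 4 TIL libraries, and neither was called (1.86 ± 0.83 (SE), adjusted p = 0.146, and 1.51 ± 0.81 (SE), adjusted p = 0.215). Itgam, the CD11b chain of the complement receptor CR3, had 121 and 13.5 CPM in the WT and 758 and 90.9 CPM in the KO TIL libraries, against 1.77 and 1.25 CPM in the WT and 2.81 and 1.11 CPM in the KO splenic libraries. It was at or below 2.81 CPM in every spleen, did not overlap and was called over all libraries (6.61 ± 0.97 (SE), adjusted p = 0.00375) and within WT (adjusted p = 0.00902). Some of its exons overlap those of RP23-144N15.3, which had no counts.

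Spi1 itself had 9.34 to 209 CPM in TIL against 1.98 to 18.2 CPM in splenic libraries and was called (3.24 ± 0.83 (SE), adjusted p = 0.0275), a call lost without KO TIL replicate 1, and the WT comparison did not call it (adjusted p = 0.401). Fcgr3, a low-affinity IgG receptor, had 38.9 to 675 CPM in TIL against 12.2 to 78.4 CPM in splenic libraries, and Sirpa, which reads the CD47 signal on other cells, 37.8 to 882 CPM in TIL against 41.7 to 111 CPM in splenic libraries. Neither passed (adjusted p = 0.0554 and 0.147). Cybb, the catalytic subunit of the phagocyte NADPH oxidase, had 179 to 1851 CPM in TIL against 102 to 193 CPM in splenic libraries. The splenic libraries differed by 1.90-fold in Cybb and by 11.9-fold in C1qb, and the library with the highest C1qb in spleen had the lowest Cybb.

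**Figure D3:**
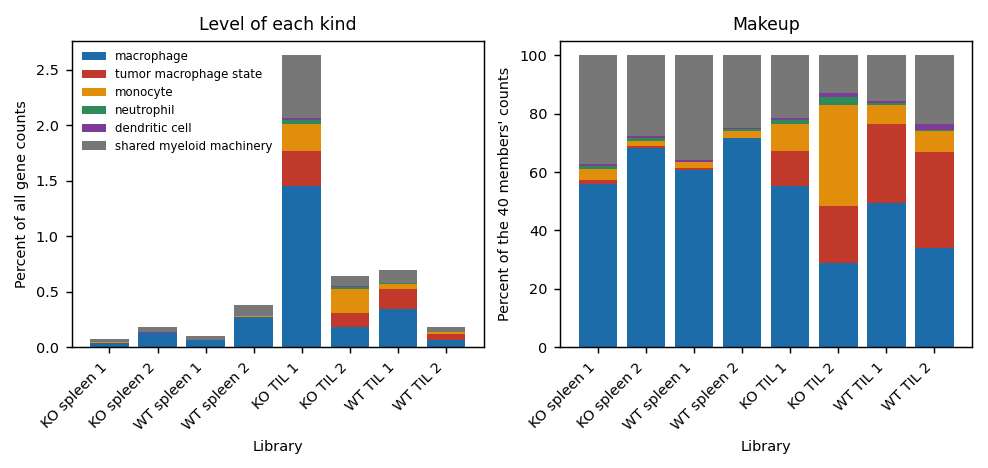
Left, percent of all gene counts held by each kind of member in each library; right, the makeup of the 40 members' counts. The total is 2.63% in KO TIL replicate 1 and 0.0743% in KO splenic replicate 1, and the tumor state genes hold 12.1% to 33.1% of the members' counts in TIL against 0.0881% to 1.34% in spleen.

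In the makeup of the myeloid counts, the tumor state and monocyte shares were higher in all 4 TIL than in all 4 splenic libraries. The shares of the macrophage genes and of the shared machinery were lower. The summed level of each kind was higher on average in TIL (4.07-fold for macrophage genes and 3.82-fold for the shared machinery). In KO TIL replicate 1 macrophage genes held 1.45% of all gene counts and the shared machinery 0.568%. The other TIL libraries held 0.0612% to 0.342% and 0.0426% to 0.109%. These ranges overlapped the splenic ones of 0.0415% to 0.270% and 0.0277% to 0.0938%. Tumor state genes made up 26.9% and 33.1% of the members' counts in WT TIL and 12.1% and 19.5% in KO TIL libraries, against 0.608% and 0.0881% in WT and 1.34% and 0.628% in KO spleen. Among them, Spp1 and Gpnmb, which melanoma cells can also make, had 23560 and 13682 counts in WT TIL replicate 1 and 3893 and 9010 in replicate 2. In KO TIL they had 16109 and 43796 in replicate 1 and 15257 and 6696 in replicate 2. Mmp12 had 8965 and 3622 in WT TIL and 25467 and 5231 in KO TIL libraries. The part of tumor cells in this share was not tested. Monocyte genes made up 6.51% to 34.6% in TIL and 1.87% to 3.76% in spleen, the highest value being that of KO TIL replicate 2. In that library Ly6c2, which activated CD8 T cells also make, had 55386 counts. Cd14 had 4738 there, Fcgr1 1181 and Vcan 137. The 13 macrophage genes made up 28.9% to 55.2% in TIL and 55.8% to 71.6% in spleen, so that the nearest libraries were almost level. The 7 shared genes took 12.9% to 23.6% in TIL and 24.9% to 37.3% in spleen. Neutrophil genes held 0.251% to 2.67% in TIL and 0.110% to 1.01% in spleen, and dendritic cell genes 0.628% to 2.12% and 0.530% to 0.733%, and both of these ranges overlapped.

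Setting each member against the C1q chains of its own library gave a ratio of counts within one library. Of the other 37 members, 17 had a higher ratio to C1q counts in all TIL than in all splenic libraries, where 4.08% of the genes tested over the 8 libraries did. In the 4 WT libraries alone this held for 22 of 34 (background 7.9%). Both counts include Mmp12, Trem2, Nos2 and Vcan, and the WT count also S100a8, which passed the filter of their comparison through TIL alone. The separation of these genes is a description only. Cd68 had 0.298 to 0.381 counts per C1q count in TIL and 0.113 to 0.188 in spleen, and Ms4a7 0.0638 to 0.0758 and 0.0175 to 0.0377. Both were narrower within TIL in this ratio than in CPM, where they spread by 10.9-fold and 8.29-fold. Mmp12 had 0.347 to 0.450 in TIL, the same narrow spread, against at most 0.000959 in spleen.

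Adgre1 and Csf1r overlapped in this ratio, at 0.0746 to 0.220 and 0.0960 to 0.552 in TIL and 0.0755 to 0.267 and 0.122 to 0.624 in spleen. Apoe and Marco were the only members with a lower ratio in all TIL libraries (background 3.76%), and in the WT libraries alone Cd163 joined them (background 5.22%). Apoe had 0.150 to 0.270 in TIL and 0.316 to 0.659 in spleen. Marco had 0 to 0.00342 in TIL and 0.0036 to 0.013 in spleen, on low counts.

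**Figure D4:**
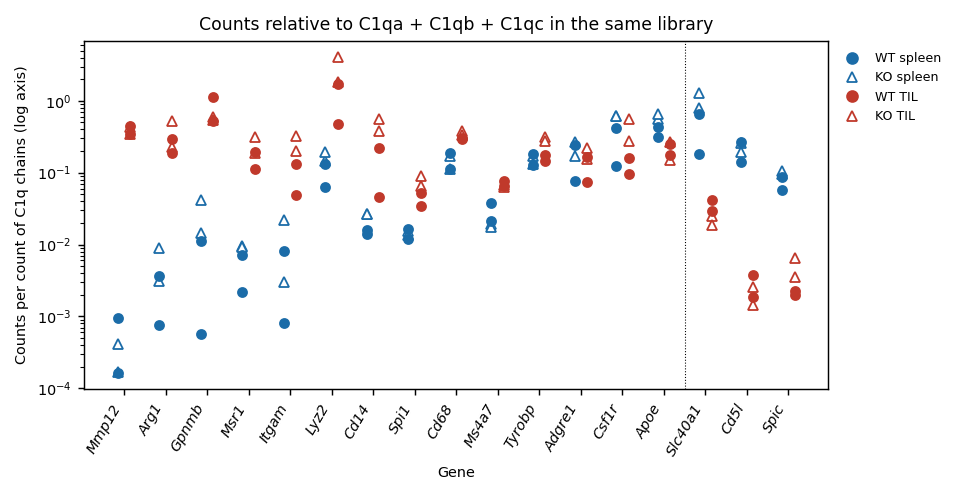
Counts of 14 members and, right of the dotted line, 3 genes of red pulp macrophages per count of C1qa, C1qb and C1qc in the same library (log axis; circles WT, triangles KO). Mmp12, Arg1, Gpnmb, Msr1, Itgam, Lyz2, Cd14, Spi1, Cd68 and Ms4a7 lie higher in every TIL library, Apoe lies lower, and Slc40a1, Cd5l and Spic lie lower by a wide margin.

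Several genes of the resident splenic macrophages were lower in TIL over the 8 libraries and within WT. Of 10 red pulp and marginal zone genes, 9 were tested over the 8 libraries, 4 were called lower in TIL (Spic, Slc40a1, Cd5l and Timd4) and 1 higher (Siglec1). In the WT libraries alone 6 of 9 were lower, the same 4 with Vcam1 and Treml4, and none was higher (background 1.87% lower). Within KO, edgeR called none of the 9 (adjusted p = 0.411 for Spic, 0.140 for Slc40a1, 0.0990 for Cd5l and 0.505 for Timd4). Spic, the factor that directs red pulp macrophages, had 2.12 and 0.5398 CPM in WT and 15.04 and 1.61 CPM in KO TIL libraries, against 18.9 and 88.7 CPM and 12.5 and 38.8 CPM in spleen. Cd5l, a secreted protein of tissue macrophages, fell by 5.04 on the log2 scale (adjusted p = 0.00696), and Timd4, a receptor for dying cells, fell by 3.6 (adjusted p = 0.0231). Per C1q count, Cd5l had 0.00147 to 0.00375 in TIL and 0.139 to 0.269 in spleen, and the iron exporter Slc40a1 0.0186 to 0.0410 and 0.183 to 1.30. Spic, Timd4 and Vcam1 were also lower in this ratio in all TIL libraries, but Hmox1 overlapped, at 0.223 to 0.385 and 0.347 to 0.709. Hmox1 and Clec4n had positive log2 fold changes over the 8 libraries (0.41 and 0.33) and were not called by edgeR.

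Partners of the members were examined in lists of their pathways, as counts with no test of the list. Over all genes tested, 11.3% were called higher and 7.84% lower in TIL over the 8 libraries, and 4.1% and 1.87% within WT. Of 63 listed genes called higher in TIL over the 8 libraries, 22 had fewer than 2 splenic libraries with about 10 counts and passed the filter through TIL alone. They were Folr2, Lyve1, Trem1, Clec5a, Clec4d, Clec4e, Csf3, Retnlg, Mmp8, Cxcr2, Ncr1, Klre1, Klri2, Klra8, Tyrp1, Mlana, Dct, Tyr, Slc45a2, Col3a1, Pdgfrb and Kdr. Of 9 receptors and kinases of the DAP12 and Fc receptor gamma pathway that were tested, 6 were called higher in TIL and none lower, and within WT 2 of 8 were (Clec4d and Clec4e). Trem1 had 0 counts in every spleen, so the TIL mean of 68.6 CPM was at least 3372-fold higher than the floor of 3 counts over the group. In TIL it had 20.04 and 0.101 CPM in WT and 227 and 27.4 CPM in KO libraries. Clec4e, a receptor for mycobacterial glycolipid, had 1 splenic count in all and a TIL mean of 174 CPM, a ratio of 25688 (exact Poisson 95% interval 4610 to 1014600).

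Growth factor receptors and ligands of the CSF family gave 5 of 7 tested genes higher in TIL (Csf3 and Csf2rb2 foremost) and none lower, and within WT 1 of 6, Csf2. The lipid program around TREM2 and APOE gave 6 of 9 higher, led by the lysosomal membrane protein Cd63 (5.92 ± 0.77, adjusted p = 0.00243) and the lipase Lpl (4.37 ± 0.79, adjusted p = 0.00805), and 1 lower, the cholesterol exporter Abcg1. Within WT, Cd63 and Plin2 were higher and Abcg1 lower. Of the NADPH oxidase list, Ncf1, a cytosolic subunit, was higher (3.01 ± 0.48, adjusted p = 0.00485) but was not called within WT (adjusted p = 0.114), and Ncf4, Cyba and Rac2 were not called (0.56, -0.016 and -0.38, adjusted p = 0.0877, 0.975 and 0.387). Among 9 tested myeloid transcription factors 3 were higher, with Mitf (3.5 ± 0.6, adjusted p = 0.00632), which is also the master factor of melanocytes, and Irf8 (2.65 ± 0.25, adjusted p = 0.000792), which is also made by B and T cells. Within WT, Irf8 was higher and Cebpa lower.

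Further macrophage genes of tissues and tumors gave 10 of 16 higher and none lower, and 8 of 16 within WT. Folr2 and Lyve1, markers of resident macrophages, had the largest log2 values of that list, on 3 and 0 splenic counts. A second neutrophil list gave 7 of 11 tested genes higher, led by Mmp8 (one of the genes that passed the filter through TIL alone) and Chil3 (7.79 ± 1.42, adjusted p = 0.00808), and 3 of 9 within WT (Mmp8, Mmp9 and Chil3). A second dendritic cell list gave 3 of 10 higher and 1 lower, with Clec10a (4.45 ± 0.90, adjusted p = 0.0121) and Fscn1 (3.97 ± 0.64, adjusted p = 0.00512) foremost, but edgeR called none of the 10 within WT. Of 7 MHC class II genes, only H2-DMb1 was called (2.84 ± 0.81, adjusted p = 0.0404; adjusted p = 0.54 within WT), although the list summed to 16378 CPM in KO TIL replicate 1 and to 961 to 2449 CPM in the other TIL libraries. In the list of mast cells, basophils and eosinophils, 3 of 8 genes had no counts in any library, and 1 of 3 tested genes, Cpa3, was lower in TIL, though not within WT (adjusted p = 0.191).

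Genes of other cells that a sort could carry over were read in the same way. NK cell genes gave 7 of 9 higher in TIL over the 8 libraries (Klre1 and Ncr1 foremost), but within WT 2 of 7 were higher (Ncr1 and Prf1) and Cd160 was lower (adjusted p = 0.0313). Both CD8 T cell genes were higher over the 8 libraries (Cd8a, 5.47 ± 0.78, adjusted p = 0.00338, and Cd8b1, 3.42 ± 0.52, adjusted p = 0.00427), and neither was called within WT (adjusted p = 0.0657 and 0.139). The 8 CD4 T cell and Treg genes gave 1 higher (Ctla4, 2.48 ± 0.30) and 3 lower (Cd4, Foxp3 and Ikzf2). Foxp3 fell by 1.74 over the 8 libraries (adjusted p = 0.0242), but in WT it had 25.5 and 60.5 CPM in TIL against 69.6 and 58.1 CPM in spleen (adjusted p = 0.562), and it had 10.2 and 2.99 CPM in the KO TIL libraries. Within WT only Ctla4 of these genes was called. Melanoma genes were all 6 higher over the 8 libraries and within WT (Slc45a2 and Tyrp1 foremost). Fibroblast genes gave 2 of 4 tested (Col3a1 and Pdgfrb; Col3a1 alone within WT) and endothelial genes 1 of 3 (Kdr, not tested within WT). B cell and plasma cell genes gave none higher and 1 lower (Cd79b, adjusted p = 0.0664 within WT), and none of 5 red cell genes was called by edgeR. Red cell genes were highest in WT TIL replicate 1 (3366 CPM) and, among spleens, in WT replicate 2 (1503 CPM), the splenic library that was also highest for 22 members, and their part was not tested.

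**Figure D5:**
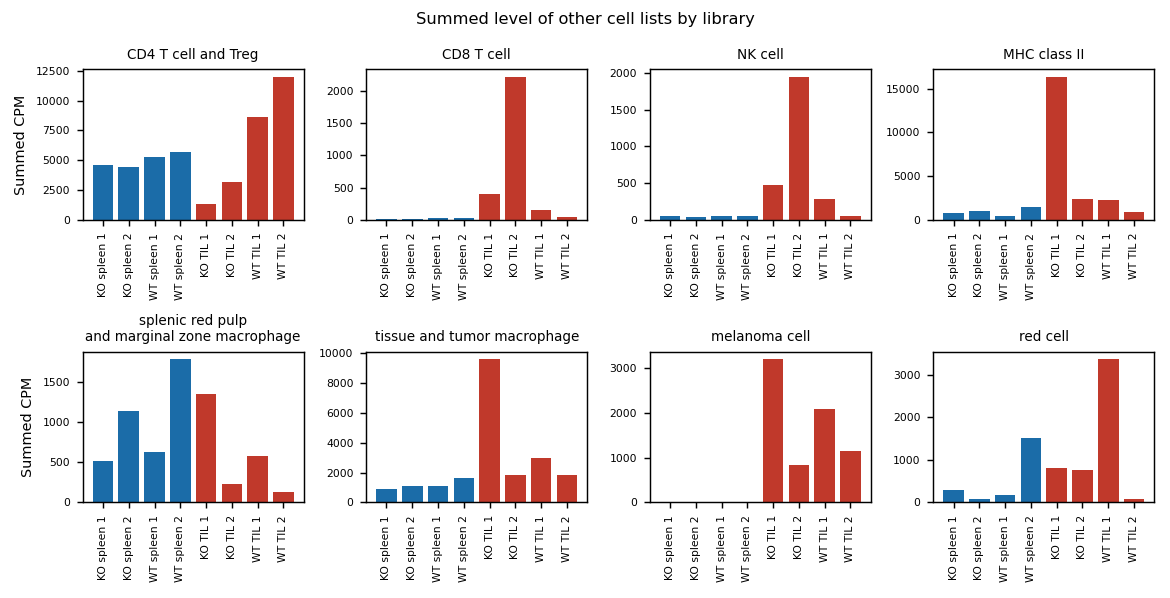
Summed CPM of 8 lists of other genes in each library (blue, spleen; red, TIL). KO TIL replicate 1 has the lowest sum of CD4 T cell and Treg genes (1373 CPM) and the highest of MHC class II genes (16378 CPM), and KO TIL replicate 2 the highest of CD8 T cell genes (2220.4 CPM).

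Whether the members differ with loss of Blimp1 depended on how they were tested. In TIL, none of the 39 members tested was called by edgeR (background 0%), with 5 at an unadjusted p under 0.05 and 38 fitted values above 0. DESeq2 called 6 of 40 higher in KO (Nos2, Ly6c2, Vcan, S100a8, Ngp and Itgax), where its background was 3.48%, and edgeR without a filter on low counts called 18 of 40 higher (background 3.2%). With KO replicate 1 or KO replicate 2 left out, edgeR again called none, with 3 and 26 members at an unadjusted p under 0.05. In 12 of the 39 members the lower KO TIL library exceeded the higher WT one, against 18% of all genes. These were Cd163, Marco, Nos2, Ly6c2, Vcan, Csf3r, S100a8, S100a9, Ngp, Itgax, Clec9a and Flt3, in which the smallest edgeR p belonged to Ly6c2 (3.37 ± 0.55 (SE), adjusted p = 0.201). Between KO replicate 2 and WT replicate 1 the gap was small in Vcan (5.12 against 5.10 CPM) and Csf3r (10.99 against 10.34 CPM). It was also small in Marco and Clec9a, each at 1.57 against 1.47 CPM, or 42 against 41 counts. Ngp had 0 counts in both WT TIL libraries and passed the filter through KO alone, so it had to differ.

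In spleen, none of 35 members tested was called by edgeR (background 0%) and 4 had an unadjusted p under 0.05, and DESeq2 called none of 36 (background 0.416%). Without WT splenic replicate 1, 16 of 37 were called by edgeR (background 22.1%), 2 of them higher in KO (background 13.7%) and 14 lower (background 8.31%). Without WT splenic replicate 2, 2 of 36 were called, S100a8 and S100a9 (background 0.267%). The interaction of genotype and tissue called no member by edgeR (background 0%), with 9 at an unadjusted p under 0.05, and DESeq2 called Ly6c2 alone of 40 (background 1.85%).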

How the data were processed

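RNA was sequenced from sorted eTreg cells in 8 libraries, 2 for each of 4 groups of genotype and tissue. The authors trimmed reads with Trimmomatic 0.36, aligned them to GRCm38 with STAR 2.5.2b, counted unique reads in exons with featureCounts (Subread 1.5.2) and deposited raw counts per gene; whether counting used strand is not given in the sources used here. Their table of normalized counts was not used. Groups came from the labels. Counts were compared with edgeR 4.0.16 (quasi-likelihood test, TMM, filterByExpr, Benjamini-Hochberg) in R 4.3.3, after the fits had been tested on simulated data, calling genes at adjusted p under 0.05 with the size of the log2 fold change above 1, as in the study's methods. Tissue was compared over 8 libraries and within each genotype, and genotype within each tissue. Sums and ratios had no test. Alternatives were DESeq2 1.42.0, its size factors, other filters and thresholds, a replicate block and leaving out each library.

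The members, the 19 other lists (152 of 153 genes found), tests and naming rule were chosen with earlier results of these data known. Values in every library are given for the 2 members of each kind with the highest level per kilobase and for members called without overlap of the groups, and for each list the 2 called genes with the largest difference, apart from 1 gene that is not reported here. Libraries held 27834676 to 43903859 counts on genes. Reads were not marked by molecule, so counts are not independent molecules. The 2 libraries of each group differed by more than sampling noise.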

Additional observations from a re-analysis of the deposited data

Results flagged for a closer look

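Marco, a scavenger receptor of marginal zone macrophages, moved in opposite directions between the genotypes in the 2 tissues. Both KO TIL libraries (5.90 and 1.57 CPM) lay above both WT TIL libraries (1.47 and 0 CPM). The nearest of these, KO replicate 2 and WT replicate 1, were almost level, at 42 against 41 counts. Both KO splenic libraries (0.902 and 1.32 CPM) lay below both WT splenic libraries (2.84 and 7.24 CPM). The interaction of genotype and tissue was 4.53 ± 1.91 (SE) on the log2 scale and did not pass edgeR's test (adjusted p = 0.623). Groups of 2 libraries are too small to look for outlying samples.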

How the results depend on the processing

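Over both genotypes the count of members called between tissues was 20, and 15 to 26 under the alternatives other than leaving out a library, except 33 when genes were tested without a filter; leaving out 1 library, whose lone partner is then assumed to vary like the other groups, gave 12 to 23. In WT the count of 11 became 7 in the fit over all 8 libraries and 20 without a filter, and ran from 4 to 18 with 1 library left out. In KO the count of 7 became 33 with DESeq2, 19 in the fit over all 8 libraries and 29 without a filter, and ran from 0 to 37 with 1 library left out. Between genotypes, the counts of 0 became 6 with DESeq2 and 18 without a filter in TIL, 7 without a filter in spleen (0 to 16 with 1 library left out), and 1 with DESeq2 and 25 without a filter for the interaction. The cause was not tested. Replicate numbers did not pair the libraries, since the correlations of their deviations ran from -0.22 to 0.234; with the replicate block, 20 members were called between genotypes in TIL, all higher in KO (3.69% of all genes tested), and 1 in spleen. In KO, crossed pairing, chosen after seeing the data, called 33 between tissues.

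Direction turned only in members that the edgeR test over 8 libraries did not call. With 1 library left out, the log2 fold change ran from -1.10 to 0.85 in Apoe, from -0.47 to 1.24 in Csf1r, from -2.13 to 0.86 in Camp, from -0.019 to 1.78 in C1qa and from -0.13 to 1.37 in Mrc1, with the lowest value without KO TIL replicate 1 in all but Mrc1 (WT TIL replicate 1). Apoe also turned to -0.17 with the replicate block and -0.041 with a mean of at least 50 counts. Without KO TIL replicate 1 and WT splenic replicate 2 together, a choice made after seeing the data, 15 members were called, and the values were -0.31 in Apoe, -0.18 in Csf1r and -1.44 in Camp.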

Other observations

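The 3 chains of C1q kept nearly fixed proportions in every library, with a small step between the tissues. Of the C1q counts per kilobase, C1qb held 51.0% to 54.2% in the 4 TIL libraries and 44.3% to 48.5% in the 4 splenic libraries, and C1qa held 22.8% to 24.3% and 26.0% to 28.5%. The 3 genes lie side by side on chromosome 4 (136880129 to 136898803, GRCm38, minus strand).

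Fcgr2b, the inhibitory IgG receptor of B cells and myeloid cells, had 117 and 25.8 CPM in WT and 621 and 114 CPM in KO TIL libraries, and 0.257 to 3.90 CPM in spleen. Foxp3 had 25.5 and 60.5 CPM in WT and 10.2 and 2.99 CPM in KO TIL libraries.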
